A study of Homo sapiens with 36 samples.

Results

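miR-28, miR-151 and miR-708 form a family of miRNAs from related hairpins. Its members were the rows of the deposited miRNA table named hsa-miR-28-5p, hsa-miR-28-3p, hsa-miR-151a-5p, hsa-miR-151a-3p, hsa-miR-151b and hsa-miR-708-5p (the prefix hsa, for human, is left out from here on), which are 6 of 1508 listed miRNAs. They were followed in 36 small RNA libraries of WI-38, diploid human fibroblasts from lung that are not transformed and stop dividing after a limited number of passages. The libraries covered 18 conditions with 2 biological replicates each. Ctrl cells were young, proliferating and untreated. PMD-Sen cells had been exposed to the detergent SDS, which damages the plasma membrane and drives the cells into senescence. They were harvested when the SDS was washed away (D0), on the following days D1, D2, D3 and D4, and again on D6, D8 and D16. DDR-Sen cells had been exposed in the same way to doxorubicin (DXR), a drug that damages DNA, and were harvested on the same days. RS cells had reached replicative senescence by serial passage. Every group came from this one untransformed strain, and each treated series shares the 2 Ctrl libraries as its reference.

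A miRNA hairpin is cut into a duplex whose strands are named 5p and 3p after the arm they come from, and the strand that is loaded into Argonaute guides it to mRNAs, mainly through the seed at bases 2 to 8. Hairpins of this family descend from LINE-2, an old transposable element, and lie in introns of protein-coding genes. miR-28 is best known as a regulator of B-cell growth and of proliferation. The miR-151 hairpin lies in the gene of focal adhesion kinase and has been tied to cell migration. miR-708 is made from a gene that is induced under endoplasmic reticulum stress. miR-28-5p and miR-708-5p are placed in one seed family, while the 5p strand of miR-151 carries related bases at a shifted position, so its seed differs.

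The sequences below show where members of the family are alike, with the seed (bases 2 to 8) in capitals. They are mature sequences from RefSeq on GRCh38.p14, written 5′ to 3′, and this table held 2 of the 6 members. miR-708-3p is the other arm of the miR-708 hairpin, and miR-3139 is the 1 other entry with the seed of miR-708-5p among the 2370 mature human miRNAs searched. miR-28-5p, placed in the same seed family, had no entry there, so this search could not return it.
miR-28-3p: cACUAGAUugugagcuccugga
miR-708-3p: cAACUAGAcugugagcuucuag
miR-708-5p: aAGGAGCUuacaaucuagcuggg
miR-3139: uAGGAGCUcaacagaugccuguu
The 3p strands of miR-28 and miR-708 had the same base at 18 aligned positions of 22, with UGUGAGCU as the longest shared run. This run begins at base 9 of miR-28-3p and at base 10 of miR-708-3p, and the seeds of the pair differ. Among the other entries, 0 carried the seed of miR-28-3p. By contrast, miR-708-5p and miR-3139 shared the whole seed and had the same base at 13 aligned positions of 23. miR-28-3p lies on chr3:188688834-188688855 of the plus strand, inside an 86-base hairpin in an intron of LPP, which encodes a protein of cell contacts. miR-708-5p lies on chr11:79402077-79402099 of the minus strand, inside an 88-base hairpin in an intron of TENM4, a teneurin gene.

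Library totals ranged from 81668 to 1933435 counts with a median of 376989, and levels are given as counts per 1e6 counts (CPM) after TMM scaling, which corrects library totals for a skewed composition. Replicates differed by more than counting error (chi-square per degree of freedom of 4.02 to 99.1), and p-values rest on 2 replicates a condition and a spread shared by all 18 conditions. As the libraries hold bulk RNA, fewer cells of one kind and less miRNA per cell cannot be told apart. The table lists miRNAs only, so the fibroblast label was checked with miRNAs. The mesenchymal miR-143-3p, miR-145-5p, miR-199a-5p and miR-214-3p were found in every library (463.8 to 17781 CPM of the unscaled total), the blood-cell miR-142-5p and miR-223-3p were at 0 in 34 and 32 of 36 libraries, and miR-142-3p was not listed. The liver miRNA miR-122-5p was at 6.16 to 279 CPM of the unscaled total, the epithelial miR-200c-3p at 8.06 to 159, miR-200b-3p at up to 41.6 and miR-141-3p at 0 in 34 libraries, and their part in the results was not tested.

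All 6 members passed edgeR's filter on low counts, as did 360 rows in all. The family took 0.852% to 1.09% of a library when the row that joins 2 of its names, described further down, is counted with it. By the members' own rows, miR-151a-3p was the most abundant across the 36 libraries (2073 to 4030.5 CPM, rank 51 of the 360 by mean level), followed by miR-28-3p (646 to 1499 CPM, rank 86), miR-28-5p (460.5 to 986 CPM, rank 97), miR-151a-5p (215 to 441 CPM, rank 130), miR-708-5p (75.2 to 202 CPM, rank 175) and miR-151b (12.6 to 62.2 CPM, rank 274). The joined row, which holds most counts of the miR-151 5p strand, had a higher mean level than any of them (3556 to 6002 CPM, rank 34). As mature miRNAs are of nearly equal length, these levels were not divided by length, but ligation differs between sequences, so the order describes counts and not molecules.

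The condition means of each member were less spread than the median of the tested miRNAs. The share of tested miRNAs with a smaller SD ran from 1.11% (miR-151a-3p) to 43.1% (miR-151b). The 2 members with the largest SDs, miR-708-5p and miR-151b, also had the lowest levels, and the part of abundance was not tested. The SD of the 18 condition means on the log2 CPM scale was 0.14 for miR-151a-3p, 0.18 for miR-28-5p, 0.19 for miR-151a-5p, 0.22 for miR-28-3p, 0.32 for miR-708-5p and 0.40 for miR-151b, against a median of 0.43 over the 360 tested miRNAs. Steps between neighbours in an order of 18 condition means are small by construction, so they do not measure how far a member moved. The means of miR-28-3p, for example, ran from 780 CPM (PMD-Sen D2) to 1345 CPM (Ctrl), with an SD within conditions of 138 CPM. For 5 of the 6 members, no step between neighbours was larger than the SD within conditions. The exception was miR-151b, whose 2 highest means (DDR-Sen D16 and RS) stood 9.66 CPM above the next, with an SD within conditions of 8.86 CPM. These 2 conditions did not stand apart by library, as their own SDs were 14.1 and 16.5 CPM. Their lower libraries (42.2 and 38.6 CPM) lay below the higher PMD-Sen D16 library (46.3 CPM).

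**Figure D1:**
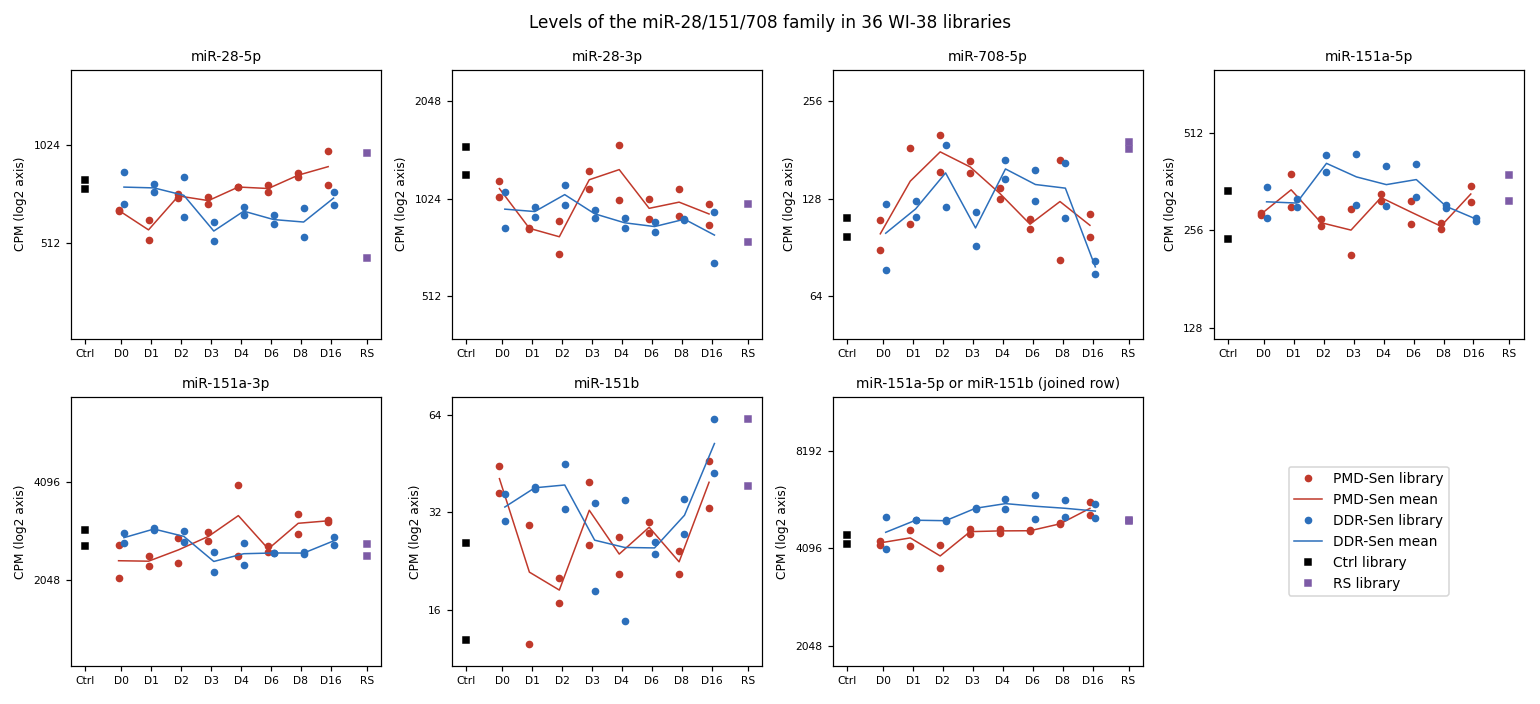
Level of each member and of the joined miR-151a-5p and miR-151b row, in CPM on a log2 axis, in every library (points; squares for Ctrl and RS) by day, with lines through the means of PMD-Sen (red) and DDR-Sen (blue). The highest condition mean of miR-28-3p was that of Ctrl, and the highest of miR-708-5p was that of RS.

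The first question was which members differ between senescent and proliferating cells. Against Ctrl, 4 of 102 tests of the members passed (7.16% of all tests), all of them for miR-28-3p. It stood at 1207 and 1482 CPM in the 2 Ctrl libraries, at 988 and 848 CPM in PMD-Sen D16, at 933 and 646 CPM in DDR-Sen D16 and at 985 and 752 CPM in RS. Each of these libraries lay below both Ctrl libraries, and the same was seen in 15 of the 17 conditions, the exceptions being PMD-Sen D3 (1243 and 1097 CPM) and PMD-Sen D4 (1017 and 1499 CPM). Over all tested miRNAs, 26.7% of such comparisons had both libraries below both Ctrl libraries, and 4.72% of the miRNAs had this in at least 15 conditions.

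Against Ctrl, miR-28-3p was lower in DDR-Sen D16 by a log2 fold change of -0.77 (SE 0.22, edgeR adjusted p = 0.0088) and in RS by -0.63 (SE 0.22, edgeR adjusted p = 0.0333). In PMD-Sen D16 the log2 fold change was -0.55 (SE 0.21, edgeR adjusted p = 0.0726). Among the earlier time points it passed the test in PMD-Sen D2, with 872 and 689 CPM and a log2 fold change of -0.78 (SE 0.22, edgeR adjusted p = 0.0490), and in DDR-Sen D6, with 869 and 809 CPM and a log2 fold change of -0.68 (SE 0.22, edgeR adjusted p = 0.0388). The log2 fold change was negative in all 17 conditions, from -0.10 (PMD-Sen D4) to -0.78 (PMD-Sen D2), which 8.61% of the tested miRNAs shared, and the 17 comparisons use the same 2 Ctrl libraries. Without Ctrl replicate 2, the higher of the pair, none of the 4 calls was kept. The log2 fold changes were then -0.64 in DDR-Sen D16, -0.45 in RS, -0.65 in PMD-Sen D2 and -0.59 in DDR-Sen D6. Without DDR-Sen D16 replicate 2 the log2 fold change at DDR-Sen D16 was -0.62, and the call was lost. In RS it was -0.80 to -0.45 over the fits without 1 Ctrl or RS library, and leaving out either RS library ended the call. The PMD-Sen D2 call was lost without either library of PMD-Sen D2 (log2 fold changes of -1.07 and -0.62). Each fit without 1 library repeated the filter, TMM and adjustment, with 1 library left in a condition. The parts of the library and of these steps in a lost call cannot be told apart. With all libraries kept, testing every miRNA with at least 1 count also ended the 4 calls.

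The other 5 members gave 0 calls in any of the 17 comparisons with Ctrl. Counted over the 6 members, 0 of 6 passed in PMD-Sen D16 (16.7% of all tested miRNAs), 1 of 6 in DDR-Sen D16 (23.1%) and 1 of 6 in RS (22.5%), and 1, 2 and 3 had an unadjusted p below 0.05. Over all 17 conditions, 4 of 102 tests passed (7.16% of all tests), all of them miR-28-3p, with 17 tests at an unadjusted p below 0.05. The share of all tested miRNAs at an unadjusted p below 0.05 was not computed for the edgeR comparisons. Such counts, here and below, therefore do not show an excess among the members. The median log2 fold change of the members was 0.18 in PMD-Sen D16, -0.10 in DDR-Sen D16 and 0.08 in RS, beside 0.05, -0.03 and 0.12 over all tested miRNAs.

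**Figure D2:**
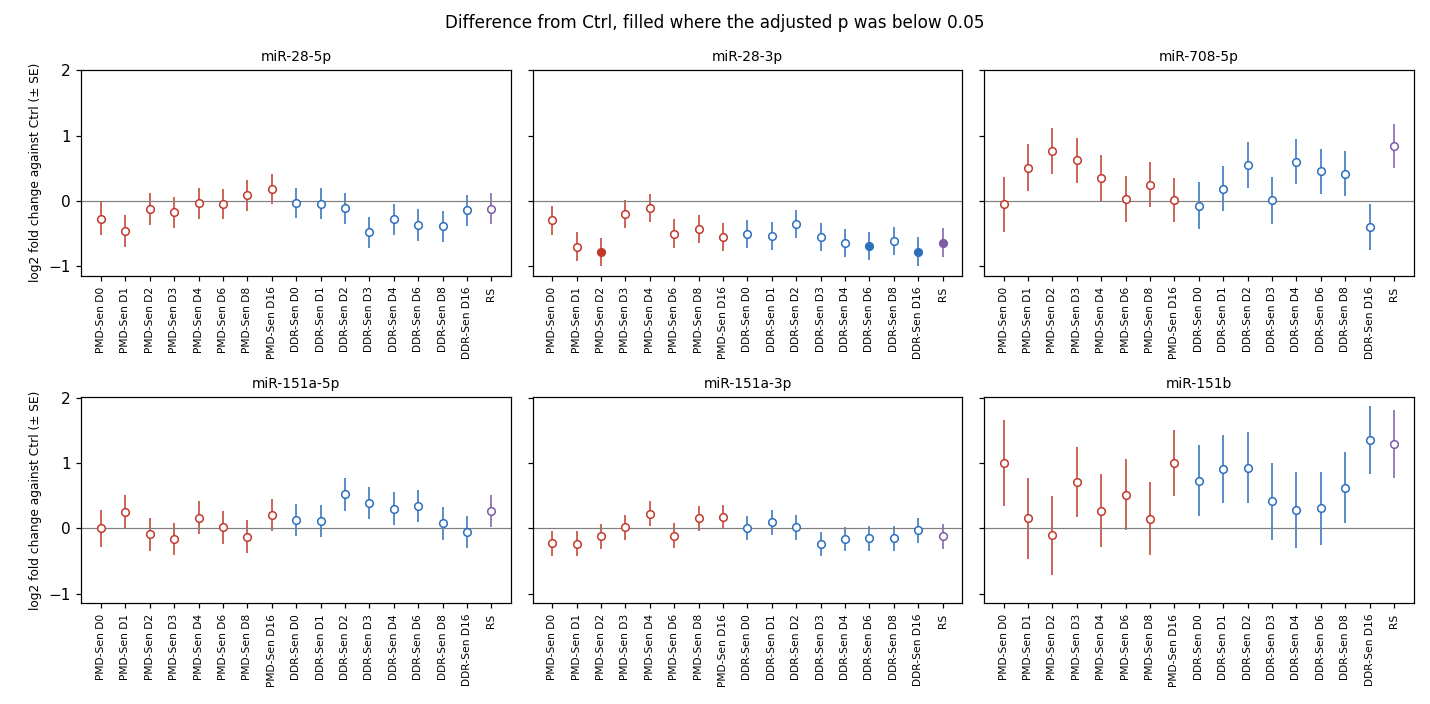
Log2 fold change against Ctrl with its SE (bars) for the 6 members in the 17 conditions, filled where edgeR's adjusted p was below 0.05. The 4 filled points all belong to miR-28-3p, at PMD-Sen D2, DDR-Sen D6, DDR-Sen D16 and RS.

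For miR-28-5p, the other strand of the hairpin, 0 of the 17 comparisons with Ctrl passed. It was at 752 and 801 CPM in Ctrl, 986 and 773 CPM in PMD-Sen D16 and 671 and 735 CPM in DDR-Sen D16. The 2 RS libraries went apart, with 460.5 CPM in replicate 1 and 966 CPM in replicate 2, while miR-28-3p was at 985 and 752 CPM in the same libraries. Against Ctrl, the log2 fold changes of miR-28-5p ran from -0.48 (DDR-Sen D3) to 0.18 (PMD-Sen D16), with SEs of 0.23 to 0.25 and an adjusted p of at least 0.286 in edgeR. They were negative in 15 of 17 conditions, with both libraries below both Ctrl libraries in 9, beside the 26.7% over all tested miRNAs. The difference between the changes of miR-28-3p and miR-28-5p against Ctrl was not tested.

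With day, miR-28-5p rose in PMD-Sen. Its 2 libraries were at 643 and 646 CPM on D0, at 600.5 and 522 CPM on D1, at 760 and 761 CPM on D4, at 815 and 841 CPM on D8 and at 986 and 773 CPM on D16. The slope, in log2 units per doubling of day + 1, was 0.14 (SE 0.05, edgeR adjusted p = 0.0383). In DDR-Sen the slope of miR-28-5p was -0.07 (SE 0.05, edgeR adjusted p = 0.315). The difference of both slopes was 0.21 (SE 0.07, edgeR adjusted p = 0.0615), so a different course in PMD-Sen and DDR-Sen was not shown by this test. In the fits that left out 1 library the difference was 0.19 to 0.28, and it passed in some of them and not in others. Without PMD-Sen D16 replicate 1 the PMD-Sen slope fell to 0.10, and the call was lost. It was also lost without PMD-Sen D0 replicate 1 (slope of 0.15) or PMD-Sen D1 replicate 2 (slope of 0.12). These fits repeated the filter as well.

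miR-151a-3p, the strand of the miR-151a hairpin that bears its own name in the table without ambiguity, followed a like course. In PMD-Sen it went from 2619 and 2073 CPM on D0 to 3276 and 2847 CPM on D8 and 3088 and 3144 CPM on D16, and the Ctrl libraries were at 2922 and 2597 CPM. The slope was 0.11 for PMD-Sen (SE 0.04, edgeR adjusted p = 0.0299) and -0.04 for DDR-Sen (SE 0.04, edgeR adjusted p = 0.496). Their difference was 0.15 (SE 0.06, edgeR adjusted p = 0.0713). Without D0 the PMD-Sen slope was 0.12 and missed the threshold (edgeR adjusted p = 0.0755). It also missed it with day unlogged (edgeR adjusted p = 0.0518) and with a filter of a mean of at least 10 counts (edgeR adjusted p = 0.0530). PMD-Sen D4 replicate 2 had the highest value of all libraries, 4030.5 CPM, where replicate 1 had 2435 CPM. Without PMD-Sen D16 replicate 1 the PMD-Sen slope of miR-151a-3p was 0.11, without PMD-Sen D1 replicate 2 it was 0.10, and both fits lost the call. The difference of the slopes was 0.16 to 0.21 in the fits that left out 1 library, beside 0.15 with all libraries. It passed in some of these fits and not in others, and each of them repeated the filter.

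These were the 2 of 6 members that passed the test of the slope in PMD-Sen, where 34.4% of all tested miRNAs passed. In DDR-Sen 0 of 6 passed (25.8% of all tested miRNAs), with 0 at an unadjusted p below 0.05, and for the difference of the slopes 0 of 6 passed (10.6%), with 2 at an unadjusted p below 0.05 and 2 passing in DESeq2. The library totals rose with day in PMD-Sen (Spearman's rho = 0.728 over 16 libraries) and less in DDR-Sen (rho = 0.101), and the part of depth in the slopes was not tested.

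Across the 18 condition means, miR-28-5p and miR-151a-3p had a Spearman's rho of 0.860, the highest of any pair of members. The miRNAs outside the family whose means were most like both were miR-379-5p (rho = 0.756 with miR-28-5p and 0.837 with miR-151a-3p) and miR-769-5p (0.756 and 0.812). These are descriptions over 18 means that share libraries and scaling. The strands of one hairpin were less alike, with rho of 0.443 for miR-28-5p and miR-28-3p. For miR-28-3p the most like miRNAs were miR-4326 (rho = 0.655), miR-143-3p (0.645) and miR-19b-3p (0.618).

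For miR-708-5p, 0 of the 17 comparisons with Ctrl passed. It was at 112 and 97.2 CPM in Ctrl, and in PMD-Sen it went from 110.3 and 89.2 CPM on D0 to 155 and 202 CPM on D2, 154 and 167 CPM on D3 and 97.4 and 115 CPM on D16. In DDR-Sen it went from 77.3 and 123 CPM on D0 to 121 and 187 CPM on D2, 116 and 91.6 CPM on D3, 147 and 169 CPM on D4 and 75.2 and 82.5 CPM on D16. The PMD-Sen D2, D3 and D4 libraries and the DDR-Sen D1, D2, D4 and D6 libraries lay above both Ctrl libraries, whereas those of DDR-Sen D16 lay below them. On DDR-Sen D3, between days with higher values, 1 library lay above and 1 below both Ctrl libraries, with a log2 fold change of 0.01 against Ctrl.

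RS had the highest mean of miR-708-5p, with 191 and 182 CPM. The log2 fold change against Ctrl was 0.84 in RS (SE 0.34, edgeR adjusted p = 0.0710), 0.77 in PMD-Sen D2 (SE 0.35, edgeR adjusted p = 0.376) and -0.39 in DDR-Sen D16 (SE 0.36, edgeR adjusted p = 0.457), and none passed the test. A straight slope over the days was -0.05 for PMD-Sen and -0.02 for DDR-Sen (edgeR adjusted p = 0.685 and 0.822). Both libraries of miR-708-5p lay above both Ctrl libraries in 8 of 17 conditions, and 26.5% of such comparisons over all tested miRNAs did so. Its counts were 8 to 179 per library. Most like it in course were miR-125a-5p and miR-99b-5p (rho = 0.678 each) and miR-425-3p (0.587).

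The other arm of this hairpin, miR-708-3p, had 61 counts in all 36 libraries together, in 19 of them, with 11 in the deepest library (PMD-Sen D16 replicate 1), where miR-708-5p had 1996 counts over the 36 libraries. miR-3139, printed above for its seed, had 2 counts in 1 library. Neither reached the filter, and no fold is given.

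Of the other miRNAs listed as background, most had few counts, the exception being miR-30c-2-3p with 1916 counts. Among LINE-2 derived miRNAs, miR-95-3p had 38 counts in 14 libraries, and miR-95-5p and miR-325 were not listed in the table. Among miRNAs linked to endoplasmic reticulum stress, miR-211-5p had 7 counts and miR-346 had 4. The 1 that could be tested, miR-30c-2-3p, which acts on the stress factor XBP1, rose with day in PMD-Sen (slope 0.30, SE 0.09, edgeR adjusted p = 0.0125) and was lower in the PMD-Sen libraries than in those of DDR-Sen over D1 to D16 (log2 fold change -0.40, SE 0.12, edgeR adjusted p = 0.0175). Its PMD-Sen D0 libraries held 4 counts each, which limits the slope.

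The 5p strand of miR-151 is split over 3 rows. miR-151a comes from a 90-base hairpin on chromosome 8 (140732564 to 140732653, GRCh38, RefSeq) in an intron of PTK2, which encodes focal adhesion kinase. miR-151b comes from a 96-base hairpin on chromosome 14 (100109419 to 100109514), in an intron of EVL, a gene of actin dynamics on the opposite strand. The mature strands are so alike that the table holds, beside the rows of miR-151a-5p and miR-151b, a further row that joins both names. That row held 93.4% of the counts of the 3 (91.4% to 95.0% per library), the miR-151a-5p row 5.93% and the miR-151b row 0.627%. How many of these reads came from each gene cannot be read from the table, so values of the miR-151a-5p and miR-151b rows are uncertain, and 21 of 36 miR-151b values were not whole numbers.

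The joined row was at 4516 and 4219 CPM in Ctrl, at 5701 and 5179.9 CPM in PMD-Sen D16, at 5599 and 5074 CPM in DDR-Sen D16 and at 5005 and 4958 CPM in RS. It lay above both Ctrl libraries in 13 of 17 conditions, which 8.89% of the tested miRNAs did as often, but 0 of the 17 comparisons passed the test, with log2 fold changes of -0.17 (PMD-Sen D2) to 0.37 (DDR-Sen D4), 2 at an unadjusted p below 0.05 and a smallest edgeR adjusted p of 0.146. With day it rose in PMD-Sen by a slope of 0.09 (SE 0.03, edgeR adjusted p = 0.0383) and had a slope of 0.06 in DDR-Sen (SE 0.03, edgeR adjusted p = 0.170). The difference of these slopes was 0.03 (SE 0.05, edgeR adjusted p = 0.797). With a filter of a mean of at least 10 counts the PMD-Sen slope was 0.06 and did not pass (edgeR adjusted p = 0.103). In fits that left out 1 library and repeated the filter, the PMD-Sen slope was 0.06 to 0.14. It lost its call without PMD-Sen D16 replicate 1, PMD-Sen D1 replicate 2 or PMD-Sen D0 replicate 1.

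miR-151b, by its own row, was at 12.9 and 25.7 CPM in Ctrl, 46.3 and 33.0 CPM in PMD-Sen D16, 62.2 and 42.2 CPM in DDR-Sen D16 and 62.0 and 38.6 CPM in RS. These late libraries lay above both Ctrl libraries, but the Ctrl values came from 3 and 9 counts. Both libraries did so in 9 of 17 conditions, including PMD-Sen D0 and DDR-Sen D0, D1 and D2. Over all tested miRNAs, 26.5% of such comparisons did so. Mean levels on D0 and D16 were 40.7 and 39.6 CPM for PMD-Sen, and 33.2 and 52.2 CPM for DDR-Sen. Neither slope over the days passed, at 0.02 for PMD-Sen (edgeR adjusted p = 0.931) and 0.04 for DDR-Sen (edgeR adjusted p = 0.783). The log2 fold change was 1.35 in DDR-Sen D16 (SE 0.52, edgeR adjusted p = 0.0590), 1.29 in RS (SE 0.52, edgeR adjusted p = 0.0695) and 1.00 in PMD-Sen D16 (SE 0.51, edgeR adjusted p = 0.161). None passed the test, and the size moved with the Ctrl library left out. The log2 fold changes were 1.96, 1.95 and 1.63 without Ctrl replicate 2, and 0.95, 0.91 and 0.62 without Ctrl replicate 1. The miR-151b row resembled miR-30b-5p (rho = 0.690), and the joined row resembled miR-30c-5p (0.922), miR-34a-5p (0.851) and miR-26a-5p (0.849).

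The second question was whether PMD-Sen and DDR-Sen differ. At D16, 0 of 6 members passed (0.556% of all tested miRNAs), with 0 at an unadjusted p below 0.05. The log2 fold changes of PMD-Sen D16 against DDR-Sen D16 ran from -0.35 (miR-151b) to 0.41 (miR-708-5p), and the smallest edgeR adjusted p was 0.724. D0, when SDS or doxorubicin had not been washed away, was left out of the comparison over days. Over the days D1 to D16, 0 of 6 members passed (20% of all tested miRNAs), with 1 at an unadjusted p below 0.05, miR-151a-5p. Its log2 fold change was -0.20 (SE 0.09, edgeR adjusted p = 0.117).

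Over these days the joined miR-151 row was lower in the PMD-Sen libraries than in those of DDR-Sen, by a log2 fold change of -0.21 (SE 0.06, edgeR adjusted p = 0.0106). On D3 it stood at 4689.6 and 4531 CPM in PMD-Sen and at 5419 and 5470 CPM in DDR-Sen, and on D6 at 4619 and 4662 CPM against 6002 and 5043 CPM. Both PMD-Sen libraries lay below both DDR-Sen libraries on 6 of 7 days, the exception being D16, and 25.1% of such comparisons over all tested miRNAs did so. An additive model of series and day gave -0.15 (edgeR adjusted p = 0.0540). Fits that left out 1 library and repeated the filter gave -0.23 to -0.15, most of them without a call. With total counts in place of TMM the log2 fold change of the joined row was -0.04 (edgeR adjusted p = 0.654), and the median of all tested miRNAs moved by 0.17. The scaling also decides the calls of members here: with total counts miR-28-5p, miR-28-3p and miR-151a-3p passed as higher in PMD-Sen (log2 fold changes of 0.35, 0.29 and 0.27, against 0.18, 0.13 and 0.10 with TMM), while 90 miRNAs were called higher and 26 lower, in place of 33 and 39.

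Both strands of a hairpin were counted in the same library, so the ratio of 5p to 3p counts does not depend on the scaling between libraries. The log2 of this ratio was taken with a pseudocount of 0.5. For miR-151a, with the 3 rows of the 5p strand summed, it was 0.74 and 0.79 in Ctrl and 1.17 and 1.01 in RS, so the 5p strand was the more abundant by counts. Summing the 3 rows was chosen after the values were seen, and reads of miR-151b are counted in with it.

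The ratio of the miR-151a strands was lower in the PMD-Sen libraries than in those of DDR-Sen. On D3 it was 0.90 and 0.73 in PMD-Sen and 1.24 and 1.42 in DDR-Sen, on D4 it was 1.05 and 0.29 against 1.44 and 1.14, and on D8 it was 0.65 and 0.86 against 1.29 and 1.15. PMD-Sen libraries lay below DDR-Sen libraries without overlap on 6 of 7 days (D2 to D16), and above them on D1 (1.07 and 0.98 against 0.86 and 0.87). Over the 86 hairpins of which both strands were tested, 24.8% of such comparisons by day had both PMD-Sen libraries below, and 2.33% of the hairpins had this on at least 6 days. The mean over D1 to D16 was 0.83 (SD 0.21, n = 14) for PMD-Sen and 1.14 (SD 0.19, n = 14) for DDR-Sen. The difference was -0.31 (exact two-sided permutation test over 279936 arrangements of the labels within days, p = 0.000414, adjusted p = 0.000829 over both hairpins). On D0 the libraries overlapped (0.78 and 1.16 against 0.94 and 0.72).

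With the miR-151a-5p row alone the difference was of like size, -0.30 (means of -3.23, SD 0.31, and -2.93, SD 0.27, n = 14 each, exact permutation p = 0.0135, adjusted p = 0.0270). For this row PMD-Sen lay below DDR-Sen without overlap on 5 days, above on 1 and overlapped on 1, where 24.6% of the comparisons by day over all hairpins had PMD-Sen below and 4.65% of the hairpins had this on at least 5 days. The call was lost with the replicate number as a block (exact permutation adjusted p = 0.0730) and without day 2, 3, 4, 6 or 8 (exact permutation adjusted p of 0.0718 to 0.128). Over all 86 hairpins of which both strands were tested, the median difference was -0.08, and 17 had an exact permutation p below 0.05. Adjusted over the 86 hairpins, p was 0.0178 with the 3 rows, where 3 hairpins passed (3.49%), all lower in PMD-Sen, and 0.129 with the miR-151a-5p row alone, where 1 hairpin passed (1.16%). A difference at least as large as that of miR-151a was seen in 29 of the 86.

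**Figure D3:**
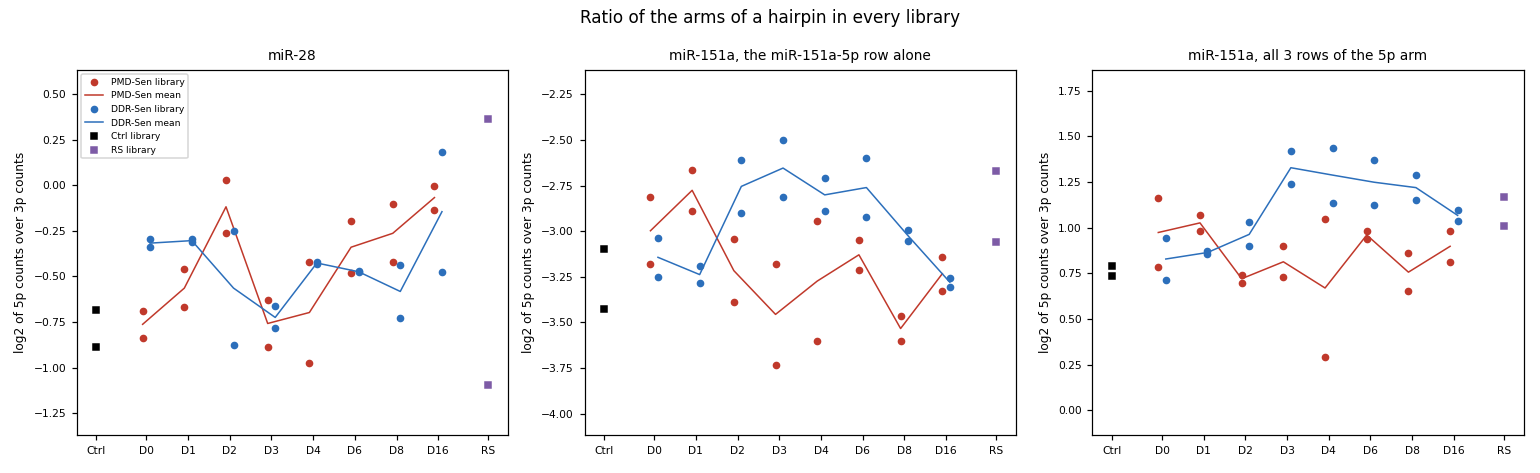
Log2 ratio of 5p to 3p counts in every library (points; squares for Ctrl and RS) by day for miR-28, for miR-151a with the miR-151a-5p row alone and with all 3 rows of its 5p strand, with lines through the means. In the last panel the PMD-Sen libraries (red) lie below the DDR-Sen libraries (blue) on each day from D2 to D16.

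For miR-28 the 3p strand was the more abundant in most libraries, with a log2 ratio of -0.68 and -0.89 in Ctrl. In PMD-Sen it ranged from -0.98 (D4 replicate 2) to 0.03 (D2 replicate 2) with a median of -0.44, and in DDR-Sen from -0.88 (D2 replicate 2) to 0.18 (D16 replicate 2) with a median of -0.43. The 2 RS libraries were at -1.10 and 0.36, a wider gap than the whole range of either series. PMD-Sen and DDR-Sen did not differ detectably over D1 to D16, with means of -0.40 (SD 0.31, n = 14) and -0.46 (SD 0.26, n = 14), a difference of 0.06 and an exact permutation p of 0.546. They overlapped on 5 of 7 days.

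**Figure D4:**
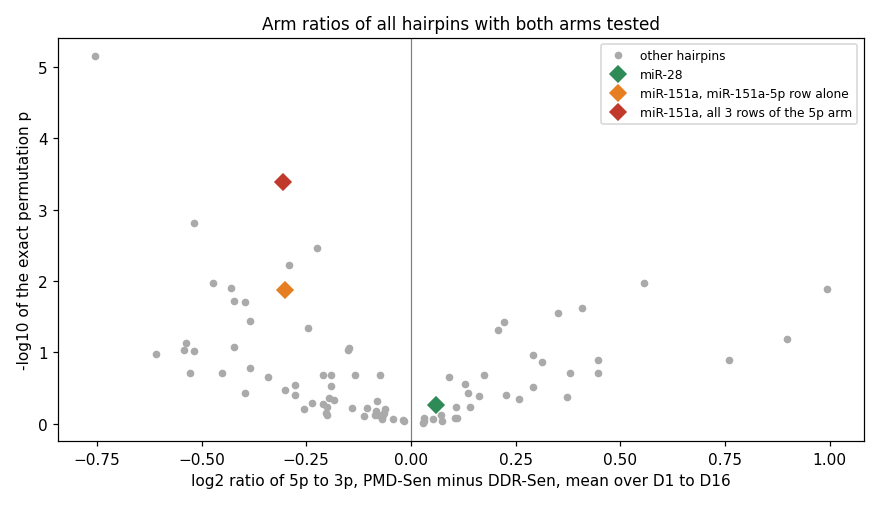
Difference of the log2 strand ratio between PMD-Sen and DDR-Sen (mean over D1 to D16, x axis) and -log10 of its exact permutation p (y axis) for the 86 hairpins of which both strands were tested (grey points; diamonds for miR-28 and miR-151a). miR-151a lies at -0.31 with the 3 rows summed and at -0.30 with the miR-151a-5p row alone, and miR-28 at 0.06.

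Whether the strand ratio moves with day was tested in each series, as 4 relations with p-values adjusted over them. For miR-28 the PMD-Sen libraries gave a Pearson's r of 0.552 (permutation p = 0.0268, adjusted p = 0.107) and Spearman's rho 0.521 (permutation p = 0.0409, adjusted p = 0.135) over 16 libraries, and r was 0.427 without the 2 D0 libraries, the farthest from the median on the log2(day + 1) scale. For miR-28 in DDR-Sen r was 0.042 (permutation p = 0.879) and rho -0.260 (permutation p = 0.331), with r of 0.236 without D0. For the miR-151a-5p row in PMD-Sen r was -0.442 (permutation p = 0.0881) and rho -0.473 (permutation p = 0.0676, adjusted p = 0.135), with r of -0.381 without D0, and in DDR-Sen r was 0.010 (permutation p = 0.970) and rho -0.053 (permutation p = 0.852), with r of -0.248 without D0. None of the 4 passed after adjustment. With the 3 rows summed rho was -0.219 for PMD-Sen (permutation p = 0.418) and 0.580 for DDR-Sen (permutation p = 0.0217, adjusted p = 0.0818).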

How the data were processed

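Small RNA libraries were made from total RNA of WI-38 cells, and the reads were trimmed, mapped to GRCh38, aligned against miRBase and counted with the exceRpt pipeline, per the study's methods. The authors deposited expected counts per mature miRNA and library, without normalization. Reads that fit several miRNAs are split between their rows or put in a joined row, so 1003 of 54288 values are not whole, and 18 row names join miRNAs. Each of the 36 libraries was matched to its condition by its label, and 0 columns were left without a sample.

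Expected counts were rounded and tested with edgeR 4.0.16 (R 4.3.3): TMM, filterByExpr over the 18 conditions (360 of 1508 rows kept), 1 quasi-likelihood fit of all libraries (18 residual degrees of freedom, biological coefficient of variation of 20.9%) and Benjamini-Hochberg adjustment over the 360 rows. A call is an adjusted p below 0.05. SEs follow from the fold change and the F statistic, and Pearson's and Spearman's correlations used 100000 permutations. Slopes are contrasts of the 8 group means of a series on log2(day + 1). CPM uses TMM-scaled totals, and log2 CPM a prior count of 2. The edgeR fit was tested on simulated data.

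Alternatives were unadjusted p, the study's thresholds (unadjusted p below 0.05 and absolute log2 fold change above 1), DESeq2 1.42.0 with its size factors or its Wald test, total counts, other filters, the replicate number as a block, a model of series and day, only the libraries of a comparison, another scale or range of day, and leaving out each library. The edgeR fits without a library repeated the filter, TMM and adjustment. Summing the 3 rows of the miR-151 5p strand and adjusting over all hairpins were added after seeing the data.

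Named were all 6 members, rows of their hairpins, miRNAs with a shared seed, the 3 most similar tested miRNAs of each member by Spearman's rho, and lists of LINE-2 derived and of endoplasmic reticulum stress-linked miRNAs. Members and lists were chosen with earlier results of these data known. Hairpin positions and hosts come from RefSeq and GENCODE on GRCh38. The mRNA data of the study were not analysed here.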

Additional observations from a re-analysis of the deposited data

Results flagged for a closer look

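3 values were picked out because PMD-Sen and DDR-Sen differed by a direct test. The joined row of miR-151a-5p and miR-151b was lower in PMD-Sen over D1 to D16, with a log2 fold change of -0.206 (edgeR adjusted p = 0.0106). This value rests on the scaling, since total counts gave -0.0354. Leaving out each of the 28 libraries in turn, with the filter repeated, gave log2 fold changes of -0.230 to -0.154, most without a call.

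The log2 ratio of the miR-151a strands was lower in PMD-Sen, with a difference of -0.301 for the miR-151a-5p row alone (exact permutation test, adjusted p = 0.0270) and of -0.305 with the 3 rows of the 5p strand summed (exact permutation test, adjusted p = 0.000829). The summed rows passed under each of the 10 alternatives run, with a difference of -0.383 to -0.253. Of the 12 alternatives set against the row alone, 5 passed, with -0.428 to -0.217. These 12 include adding miR-151b to the row and summing the 3 rows, which passed, so not all of the passes are of the row alone. The median difference of -0.0820 over 86 hairpins has the same sign, and the part of a general shift of strand ratios in this value was not tested. No condition had more than 2 libraries, so single libraries were not tested for standing apart from their condition.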

How the results depend on the processing

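At an unadjusted p below 0.05 the members called were 1 in PMD-Sen D16, 2 in DDR-Sen D16, 3 in RS, 1 in PMD-Sen against DDR-Sen, 2 for the difference of the slopes and 17 over the 17 conditions. At the study's thresholds they were 0 for the PMD-Sen slope and 2 over the 17 conditions, miR-151b in DDR-Sen D16 and RS, with none of the 4 miR-28-3p calls kept. In PMD-Sen D16, 1 member (miR-28-3p) was called with DESeq2 size factors, total counts, a mean of at least 10 counts, DESeq2's Wald test and only the libraries of the comparison. Over the 17 conditions these counts were 7 with DESeq2 size factors, 9 with total counts, 7 with a mean of at least 10 counts and 9 with DESeq2's Wald test, against 4. The share of all tests passing over the 17 conditions was computed for the main fit only (7.16%). The counts under other settings and thresholds therefore have no share to be set against. Keeping every miRNA with at least 1 count gave 0 calls in DDR-Sen D16, RS and the 17 conditions together. Total counts gave 3 in PMD-Sen against DDR-Sen, and DESeq2's Wald test 2 for the difference of the slopes. The PMD-Sen slope kept 0 calls with a mean of at least 10 counts, and 1 (miR-28-5p) without D0 or with day unlogged. With only the libraries of a comparison, 2 were called in DDR-Sen D16 and 0 in RS. Total counts moved the median of all miRNAs by -0.10 in RS. Leaving out 1 library changed the calls over the 17 conditions, for the PMD-Sen slope, for the difference of the slopes, in DDR-Sen D16 and in RS. The log2 fold changes of miR-28-3p were then -1.07 to -0.62 in PMD-Sen D2 and -0.88 to -0.59 in DDR-Sen D6. The call was lost in most of these fits for PMD-Sen D2 and in some for DDR-Sen D6. Each such fit repeated the filter, TMM and adjustment, so the part of the library itself cannot be told apart. The causes were not tested.

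Spearman's correlation of the miR-151a ratio with day in DDR-Sen (-0.053) was 0.363 without D16, 0.0828 with miR-151b added, 0.580 with the 3 rows and -0.198 to 0.147 without 1 library. For miR-28 in PMD-Sen it was 0.458 to 0.681 without 1 library, passing once (without PMD-Sen D2 replicate 2). The miR-28 difference between PMD-Sen and DDR-Sen was -0.00574 without day 2. That of miR-151a, by its row alone, was -0.274 without day 2, -0.217 without day 3, -0.272 without day 4, -0.289 without day 6 and -0.266 without day 8, with exact permutation adjusted p of 0.0718 to 0.128, and it missed the threshold over 86 hairpins (-0.301, adjusted p = 0.129).

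No general pairing of libraries by replicate number was seen (correlations of -0.458 to 0.366 over 153 pairs of conditions, median 0.0415, 53 over 0.1). Pairing within a part of the conditions was not tested. With the number as a block the miR-151a row alone (-0.301) lost its call (exact permutation adjusted p = 0.0730), and no other call of a named result changed. Depth limits miR-151b (1.5 to 85 counts) most.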
